A study of Homo sapiens with 2 samples.

Results

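GATA1 occupancy was examined at 10 genes of blood vessel growth, namely VEGF, VEGFB, VEGFC, PGF and FGF2 (ligands), KDR, FLT1 and FLT4 (receptors), and ANGPT1 and ANGPT2 (angiopoietins). The array design writes VEGFA as VEGF, and that name is kept here. The genes were chosen by name, and a probe belonged to a gene when the array annotation listed that symbol with a distance to its transcription start. This gave 328 probes, 228 on the array called chIP1 (7 genes) and 100 on the array called chIP2 (VEGFB, PGF and FLT1), out of 237210 and 237201 genomic probes. The 10 genes were among 17056 genes with at least 1 window of adjacent probes.

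The material was the human megakaryocytic leukemia line Meg-01, left untreated, with no genetic change or agent named for the cells used on these arrays. Chromatin was immunoprecipitated with the C-20 antibody to the GATA1 C-terminus, labeled with Cy5 and called the IP here, or with normal goat IgG, labeled with Cy3, and the pair was hybridized together. The 2 arrays carried different probes, so every probe has a single measurement, without a replicate and without a swap of the dyes. No test was therefore run, and no value below has an error between samples. The arrays measured precipitated genomic DNA, so the identity of the cells could not be checked by expression markers.

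VEGF family ligands act on endothelial cells through the receptor tyrosine kinases FLT1, KDR and FLT4. KDR carries most of the growth and permeability response to VEGF, FLT1 binds VEGF, VEGFB and PGF, and FLT4 receives VEGFC in lymphatic vessels. FGF2 is a heparin-binding growth factor for endothelial cells and fibroblasts, and the angiopoietins ANGPT1 and ANGPT2 bind the receptor TEK on vessels and on hematopoietic stem cells. Platelets store VEGF and other vessel growth factors in their alpha granules, and megakaryocytes produce them.

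The value of a probe was log2 of the processed IP signal over the processed IgG signal, written log2(IP/IgG), after each array's median had been set to 0. A window was the mean over 3 adjacent probes, both neighbors no more than 1000 bp from the middle one. Windows of at least 1 (2-fold) are called IP-side and those of at most -1 IgG-side. Signals were low on both arrays. The median raw IP signal was 542.6 on chIP1 and 544.4 on chIP2, against 341.7 and 340.3 for the negative control spots. The median raw IgG signal was 412.3 and 439.8, against 302.5 and 302.9. All 328 probes passed the filter on dim spots, and 325 of them were well above background in both channels.

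Of the 10 genes, 9 had an IP-side window, ANGPT1 being the exception, and 57.1% of all genes had one. On the IgG side, 5 of the 10 had one (VEGFC, KDR, FLT1, ANGPT1 and ANGPT2), as did 52.9% of all genes. At a threshold of 3-fold the IP side held VEGF, FGF2, KDR, FLT1 and FLT4, or 5 of 10 genes against 20.6% of all genes, and the IgG side held KDR and FLT1, or 2 of 10 against 22.3%. The median highest window of the 10 genes was 1.51 on the log2 scale, against 1.09 over all genes, and the median lowest window was -0.97, against -1.05. By single windows, 32 of the 302 windows of these genes (10.6%) leaned to the IP by 2-fold or more and 16 (5.3%) to the IgG. Over all windows the shares were 7.62% and 9.65%. Neighboring windows share probes, so these windows are not independent values. A gene with more windows also has more chances to hold one past a threshold. The 10 genes had from 18 (FGF2) to 45 (VEGF) windows each, and the shares and ranks over all genes were not matched for this number.

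**Figure D1:**
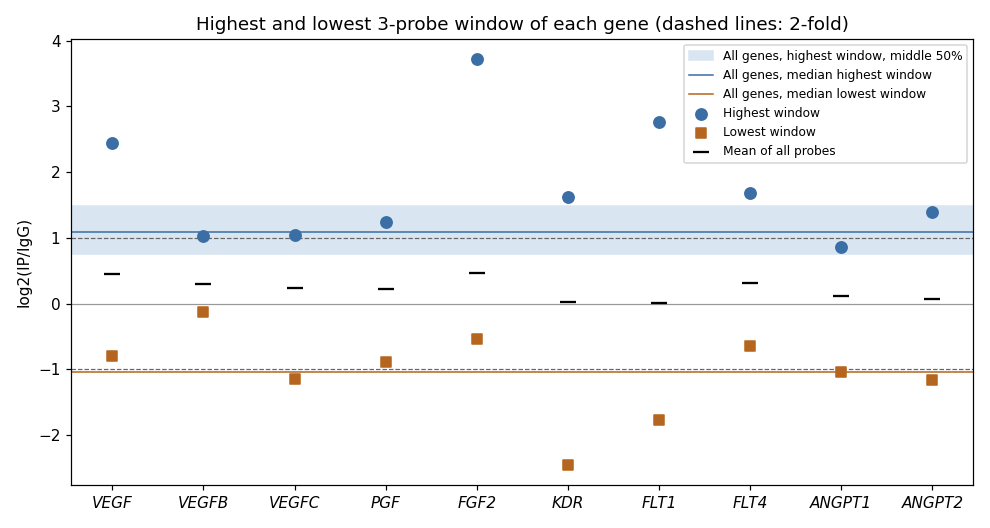
Highest window (circles), lowest window (squares) and mean of all probes (dashes) of each gene on the log2(IP/IgG) scale, with the median highest and lowest window of all genes as lines, the middle 50% of the highest windows shaded, and 2-fold dashed. FGF2 at 3.72 and FLT1 at 2.76 (both over IgG signals near the negative controls) and VEGF at 2.45 stood furthest above the shaded band. FLT4 at 1.69 and KDR at 1.62 were also above it. The lowest windows of KDR at -2.46 and FLT1 at -1.78 were furthest below the median lowest window.

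VEGF, the main endothelial growth factor of the family, had 47 probes from -5307 to 3474 bp relative to its start (negative values are upstream), on chromosome 6 from 43840597 to 43849432 in the coordinates of the array, whose genome build is not given in the sources used here. Its IP-side windows formed 2 regions. The region inside the gene was 1045 bp long, on chromosome 6 from 43847350 to 43848394, with 5 IP-side windows. Along it the probes at 1892, 2059, 2171 and 2286 bp had log2(IP/IgG) values of 2.41, 2.78, 2.16 and 1.41, while the probes just before and after, at 1608 and 2441 bp, had 0.28 and 0.49. The rise and fall was thus carried by 4 consecutive probes. Its highest window had a log2(IP/IgG) of 2.45 with a standard error of 0.18 by the error model of the scanner, which covers spot error on 1 array only, and it was above the highest window of 96.7% of the genes on chIP1.

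The second VEGF region lay upstream, on chromosome 6 from 43841842 to 43842507, and its highest window had a log2(IP/IgG) of 2.08. The probes at -3876, -3663 and -3563 bp had values of 1.58, 2.65 and 2.00, and the next probe, at -3446 bp, had 0.23. The raw signals of these probes differed from those inside the gene. Inside the gene, the raw IP signals of the 3 probes of the highest window were 1444.1, 1250.4 and 913.7 and the IgG signals 409.2, 372.5 and 370.6. In the upstream region the IP signals were 1147.2, 698.4 and 521.0 and the IgG signals 437.4, 329.1 and 329.3, so the IgG channel of the last 2 probes was at 1.09 times the negative control median. Between the regions, from -432 bp to 406 bp around the start, all 6 probes lay between -0.16 and 0.56. The lowest VEGF window, -0.80, was the outermost upstream, and no VEGF window was on the IgG side.

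The study designed a primer pair to check the VEGF locus by PCR after ChIP. It is shown because the last 4 bases of the forward primer (capitals) are the complement of GATA read backwards. No genome of the array's build was used here, so the pair was not placed relative to either region.
VEGF forward: tctgctccaatcttttTATC
VEGF reverse: actgatctgcaggaagg

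**Figure D2:**
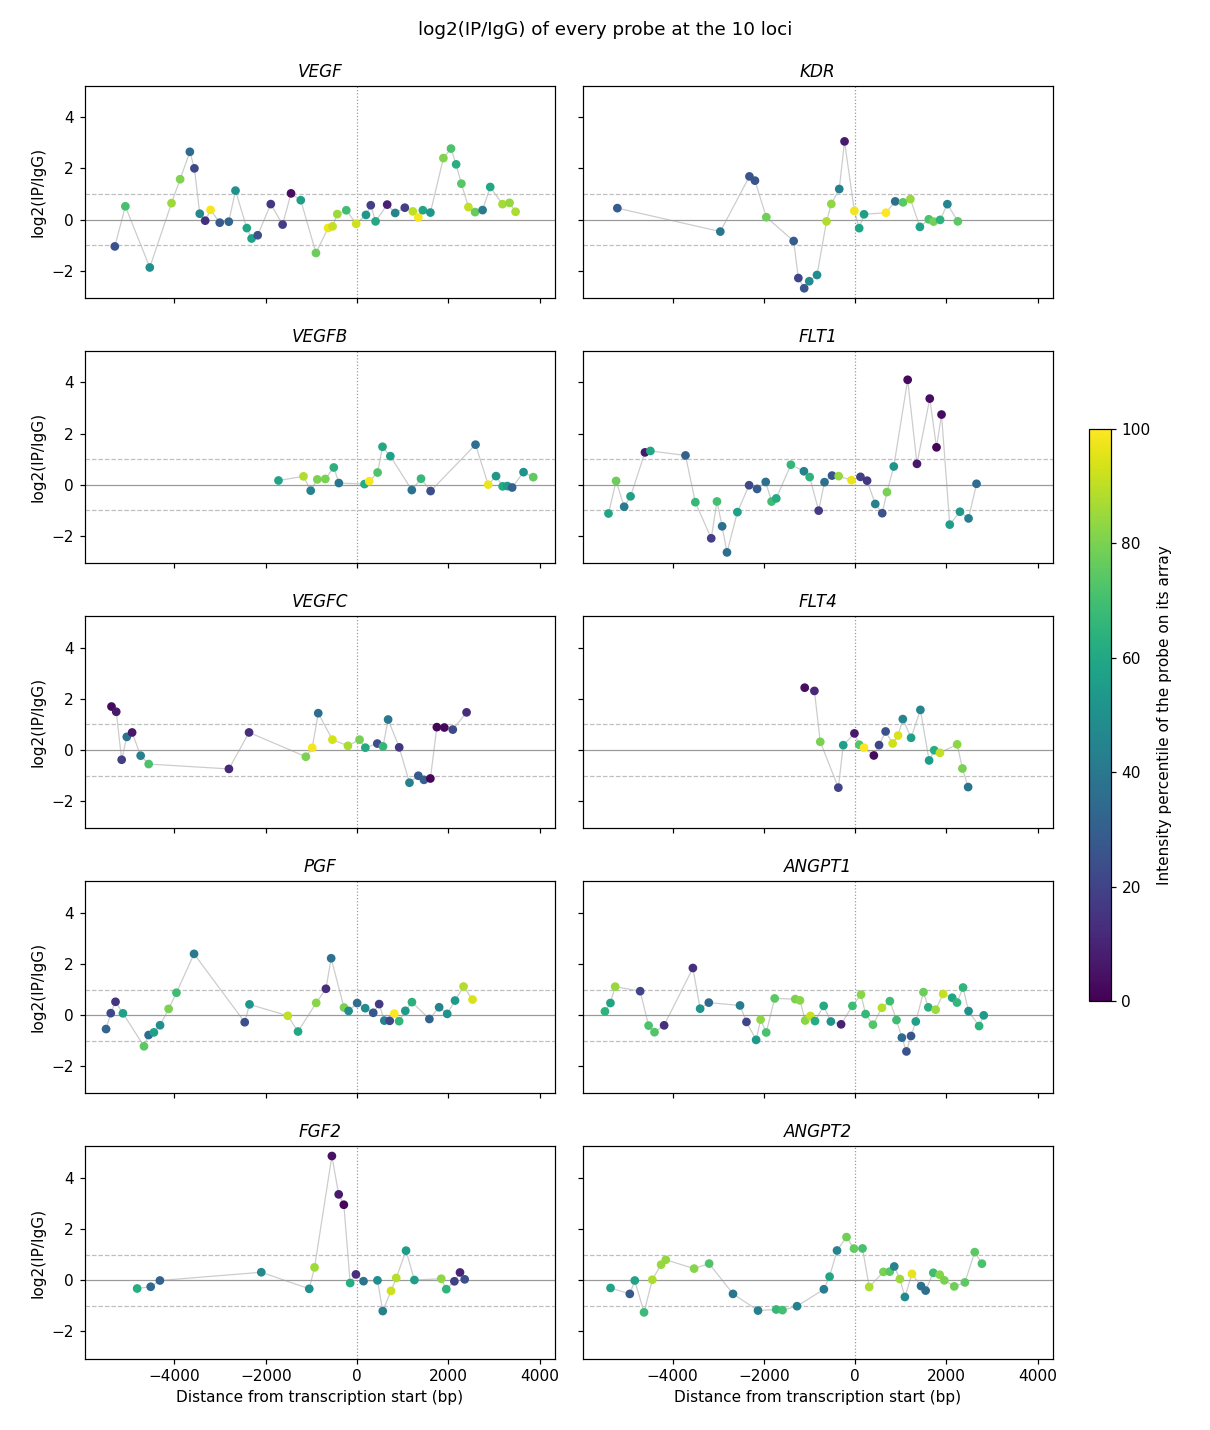
Each point is 1 probe, with its distance from the annotated transcription start in bp on the x axis (negative upstream), its log2(IP/IgG) on the y axis, and its color giving the percentile of its mean log intensity on its array; dashed lines mark 2-fold. The peak inside VEGF near 2059 bp was made of bright probes, whereas those at FGF2 near -402 bp and FLT1 near 1355 bp were made of probes near the bottom of the intensity range.

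VEGFB, a ligand of FLT1, was among the flattest of the loci. It had 23 probes, on chromosome 11 from 63757091 to 63762731, with an SD of log2(IP/IgG) over its probes of 0.50, against 0.97 over all probes of chIP2. Its 1 IP-side window had a mean of 1.03, just past 2-fold, with probes at 451, 558 and 730 bp of 0.48, 1.49 and 1.12. These probes were not dim, with IP signals at 2.00 to 2.29 times and IgG signals at 1.28 to 1.62 times the negative control median. A single probe at 2596 bp had 1.57, and no probe of VEGFB was at or below -1. The 7 upstream probes also carried the names of the neighboring genes FKBP2, DNAJC4 and NUDT22, and some of these TRPT1 or FERMT3, whereas the probes of its IP-side window, inside the gene, did not.

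VEGFC, the lymphatic growth factor and ligand of FLT4, had 28 probes, on chromosome 4 from 178086615 to 178094454. It held an IP-side window and an IgG-side region close together inside the gene. The probes at 1149, 1343, 1466 and 1607 bp had log2(IP/IgG) values of -1.28, -1.01, -1.17 and -1.11, and those at 1913, 2098 and 2400 bp had 0.88, 0.80 and 1.47. The IP-side window was the last one of the locus, at 1.05, and the IgG-side region reached -1.15. Both lay among dim probes. The IP-side window was at the intensity percentile 6.0 of chIP1, its IgG signals were at most 1.11 times the negative control median, and the IgG-side window was at percentile 29.7. Upstream, the probes at -5380 and -5276 bp had 1.70 and 1.49, and the next, at -5157 bp, -0.38.

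PGF, a ligand of FLT1, had 36 probes, on chromosome 14 from 74489491 to 74497571, and 2 IP-side regions upstream. The probes at -895, -681 and -567 bp had log2(IP/IgG) values of 0.48, 1.03 and 2.22, giving its highest window of 1.24. At the second region, the probes at -4128, -3957 and -3571 bp had 0.24, 0.87 and 2.39, giving a window of 1.17. In both regions 1 probe was over 2 and its neighbors were far lower, unlike the peak inside VEGF. From 3 bp to 2147 bp inside the gene, all PGF probes lay between -0.24 and 0.57.

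FGF2 had the highest window of the 10 genes. It had 23 probes, on chromosome 4 from 124100620 to 124107856, and 5 IP-side windows that formed 1 region of 1073 bp upstream of the start, from 124104393 to 124105465. The probes at -551, -402 and -289 bp had log2(IP/IgG) values of 4.85, 3.35 and 2.95, and the probes beside them, at -931 and -150 bp, had 0.50 and -0.11. The region was thus made by 3 probes, and of the other 20 only the probe at 1074 bp, with 1.16, was at 1 or above. The IgG signal of 2 of the 3 probes of this window was not well above background. The window mean of 3.72, or 13.2-fold toward the IP, is therefore the ratio as measured over a denominator near background. It sets no minimum. As given, it was above the highest window of 99.9% of the genes on chIP1.

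These 3 FGF2 probes were among the dimmest on the array. Their raw IP signals were 504.5, 475.5 and 385.8 and their raw IgG signals 300.5, 310.9 and 299.8, against 302.5 for the IgG negative controls. After the background removal of the scanner software the processed IgG signals were 23.1, 53.5 and 24.3, and the processed IP signals 665.3, 546.8 and 187.6. The IgG signals at -551 and -289 bp were not well above background. The ratios of these 2 probes as measured were 28.9-fold and 7.73-fold toward the IP. The lowest processed IgG signal called well above background on chIP1 was 21.73, below both of theirs. It therefore gave no bound on either ratio. When windows had to consist of probes well above background in both channels, the highest FGF2 window was 0.42, and 8 of the 10 genes kept an IP-side window against 55.6% of all genes. Leaving those 2 probes out before windows were made gave an FGF2 window of 1.25. With normexp, another background correction described below for FLT1, the window of 3.72 fell to 0.80. The denominators of the FGF2 fold were thus IgG signals at the level of the negative controls, and their part in the result was not tested.

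The reference promoter of FGF2 is shown because its IP-side region reached toward the start. The high probes of that region lay further upstream, and those at -150 and -24 bp had log2(IP/IgG) values of -0.11 and 0.23. The bases shown are the 250 before the start of the RefSeq transcript. They are on the plus strand of GRCh38.p14 at chr4:122826581-122826830, with each CG in capitals. The build differs from that of the array, so array distances cannot be read onto these bases.
FGF2 promoter: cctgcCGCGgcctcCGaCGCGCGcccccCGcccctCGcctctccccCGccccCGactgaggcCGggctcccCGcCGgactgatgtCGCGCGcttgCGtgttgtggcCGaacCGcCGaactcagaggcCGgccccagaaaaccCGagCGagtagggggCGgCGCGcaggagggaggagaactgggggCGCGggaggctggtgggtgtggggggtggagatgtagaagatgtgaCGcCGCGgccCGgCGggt
The sequence held 33 CG pairs and was 75.2% G or C, against medians of 11 and 58.0% over 35116 RefSeq promoters of the same length. Neither the word AGATAA nor the word AGATAG, and neither the word TGATAA nor the word TGATAG, was present on either strand in it, or in those of VEGFB, VEGFC, PGF, KDR and FLT1, the other 5 genes with an entry. One or more of these words was present in 22.3% of all promoters. The absence says only that these letters are not in the 250 bases before these starts. Sequence further upstream or inside the genes was not searched.

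KDR, the main signaling receptor for VEGF, had IP-side and IgG-side signal side by side in its promoter. It had 27 probes, on chromosome 4 from 55830410 to 55837930. The probes at -522, -348 and -232 bp had log2(IP/IgG) values of 0.61, 1.20 and 3.06, giving the highest window of 1.62, and the probe at -17 bp had 0.34. Further upstream, the probes at -1244, -1116, -1005 and -835 bp had -2.28, -2.68, -2.41 and -2.16. The first 3 of these 4 consecutive probes made the lowest window of the 10 genes, -2.46 with a scanner standard error of 0.18, and 4.0% of the genes on chIP1 had a lower one. Strong values of opposite sign thus lay within the same promoter.

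The signals differed between the KDR regions. In the IgG-side window the raw IgG signals were 396.7, 437.7 and 522.8, at 1.31 to 1.73 times the negative control median, while the IP signals were 380.4, 384.8 and 423.3, at 1.11 to 1.24 times theirs. On the IP side, the probe at -232 bp had an IgG signal of 306.5, at 1.01 times the negative control median, while the probe at -522 bp had an IP signal of 1073.2 and an IgG signal of 543.8. The highest single KDR value was thus the dimmest in the IgG channel. A further window on the IP side lay around -2195 bp, at 1.10, with probes at -2316 and -2195 bp of 1.69 and 1.52. Inside the gene all 12 KDR probes lay between -0.33 and 0.80.

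The reference promoter of KDR is shown because probes of its IP-side region lie close to the start. It is on the minus strand of GRCh38.p14 at chr4:55125596-55125845, read 5′ to 3′, with each CG in capitals.
KDR promoter: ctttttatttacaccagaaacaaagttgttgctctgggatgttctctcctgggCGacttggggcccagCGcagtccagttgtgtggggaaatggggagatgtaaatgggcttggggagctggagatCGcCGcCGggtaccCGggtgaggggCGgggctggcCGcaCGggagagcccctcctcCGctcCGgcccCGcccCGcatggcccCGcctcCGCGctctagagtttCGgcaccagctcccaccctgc
It held 17 CG pairs and was 65.2% G or C. The 4-letter word GATA was present on neither strand in the entries of any of the 6 genes, KDR included, and in 45.6% of all promoters.

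FLT1, the receptor for VEGF, VEGFB and PGF, had the widest spread of signal among the receptors, with 6 IP-side and 6 IgG-side windows among 39. Its 41 probes lay on chromosome 13 from 27964543 to 27972661. Inside the gene, the probes at 1151, 1355, 1635, 1783 and 1893 bp had log2(IP/IgG) values of 4.10, 0.82, 3.37, 1.47 and 2.75, and the next, at 2073 bp, had -1.56. High and low probes alternated in this region. Its highest window was 2.76, and the IgG signal of 1 of the probes of that window was not well above background. This window, at 6.79-fold toward the IP as measured, likewise sets no minimum. As given, it was above that of 98.6% of the genes on chIP2.

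All 5 of these FLT1 probes were dim. Their raw IgG signals were 304.0, 311.4, 309.0, 308.6 and 307.4, against 302.9 for the IgG negative controls, and their raw IP signals ranged from 357.0 to 420.6, against 340.3. The IgG signal at 1151 bp was not well above background. The ratio of that probe as measured was 17.2-fold toward the IP, which sets no minimum either. Among windows whose 3 probes were all well above background in both channels, the highest at FLT1 was 2.53. Normexp background correction started from the mean signals before the scanner's own correction and dye normalization. It subtracts the local background, fits a model of signal plus noise to the remainder, and adds an offset of 50 to both channels. With it, the window that had been highest fell to -0.02.

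FLT1 had 2 IgG-side regions, 1 upstream with 5 windows and 1 inside the gene with 1 window. In the upstream region, the probes at -2914, -2808 and -2579 bp had log2(IP/IgG) values of -1.62, -2.64 and -1.07, with raw IgG signals of 480.6, 520.9 and 518.0 and raw IP signals of 431.3, 396.4 and 511.9. The window mean was -1.78, and 15.4% of the genes on chIP2 had a lower one. Inside the gene, just past the IP-side region, the probes at 2073, 2297 and 2485 bp had -1.56, -1.05 and -1.31, giving a window of -1.31, with raw IgG signals of 550.0, 466.9 and 491.9 and raw IP signals of 479.5, 464.2 and 459.8. Around the start, from -506 bp to 262 bp, the FLT1 probes lay between 0.16 and 0.36.

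FLT4, the receptor of lymphatic endothelium for VEGFC, had 22 probes, on chromosome 5 from 180006674 to 180010307, of which 6 were upstream of the start. The 2 outermost upstream probes, at -1105 and -892 bp, had log2(IP/IgG) values of 2.43 and 2.31, the next, at -764 bp, had 0.32, and the one at -368 bp had -1.47. The highest window, 1.69, thus stood at the edge of the tiled stretch, and what lay further upstream was not measured under this name. The IgG signals of the 2 high probes were 307.5 and 314.9, at 1.02 and 1.04 times the negative control median. A second window, at 1.08, lay inside the gene, with probes at 1045, 1226 and 1430 bp of 1.21, 0.47 and 1.57 and IgG signals between 352.2 and 408.2.

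ANGPT2, the context-dependent TEK ligand released by endothelial cells, had its highest window over the start itself. It had 36 probes, on chromosome 8 from 6405365 to 6413554. The probes at -397, -189, -25 and 162 bp had log2(IP/IgG) values of 1.16, 1.69, 1.24 and 1.24, and those at -560 and 308 bp had 0.14 and -0.26. The window mean of 1.39 was above that of 68.1% of the genes on chIP1. The signals were well off the floor, with IP signals of 1140.7, 972.9 and 874.3 and IgG signals of 427.8, 444.7 and 420.1 for the 3 probes from -189 to 162 bp. Upstream, the probes at -2128, -1730 and -1592 bp had -1.18, -1.14 and -1.17, an IgG-side region of evenly low values. All 36 probes also carried the name of MCPH1, at 128915 to 137052 bp inside that gene, so a signal here cannot be assigned to ANGPT2 alone.

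ANGPT1, the TEK agonist made by perivascular cells, had no IP-side window among 43. Its 45 probes lay on chromosome 8 from 108576583 to 108584942. The highest window was 0.86, at -3396 bp, below the median of 1.09 over all genes, and rested on 1 probe, with 1.84 at -3555 bp beside 0.25 and 0.49. Within 500 bp of the start on either side, all 5 probes lay between -0.37 and 0.80. Its 1 IgG-side window, at -1.04, held the probes at 1024, 1124 and 1225 bp, with -0.88, -1.42 and -0.82.

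**Figure D3:**
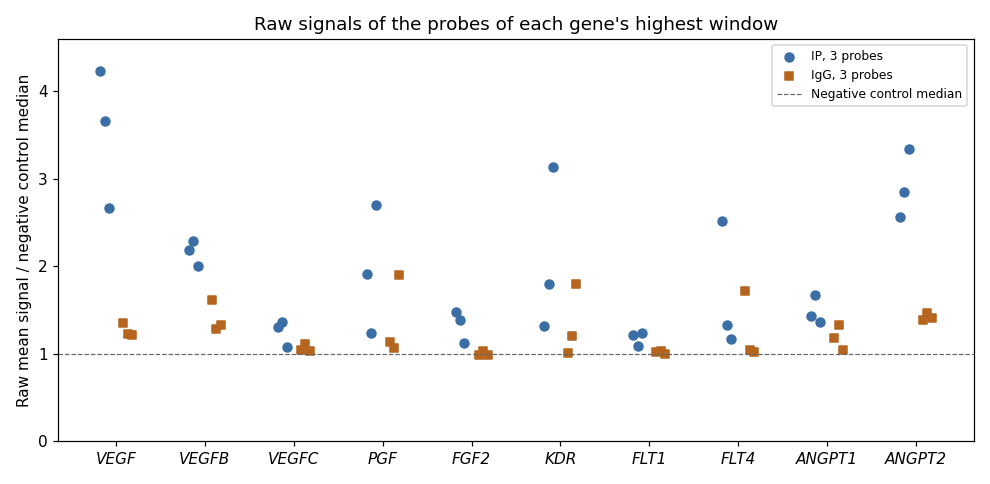
Raw mean signal of the 3 probes of each gene's highest window, in the IP (circles) and the IgG channel (squares), divided by the median of the negative control spots of that channel and array (dashed line at 1). The IP signals of VEGF reached 4.23 and those of ANGPT2 3.34, while at FGF2 and FLT1 no IP signal exceeded 1.48 and no IgG signal 1.03.

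Read across the 10 genes, the highest windows differed in how far their signals stood above the negative controls. The lowest of the 3 IP signals was at 2.67 times the negative control median at VEGF, 2.56 times at ANGPT2 and 2.00 times at VEGFB, and at no more than 1.36 times in the other 7. With normexp correction the genes with an IP-side window were these same 3, VEGF at 2.12, VEGFB at 1.02 and ANGPT2 at 1.29, or 3 of 10 against 33.1% of all genes. The IgG side then held KDR and FLT1, or 2 of 10 against 23.9%. The highest windows of FGF2, FLT1 and KDR were 0.94, 0.67 and 0.85 with this correction.

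**Figure D4:**
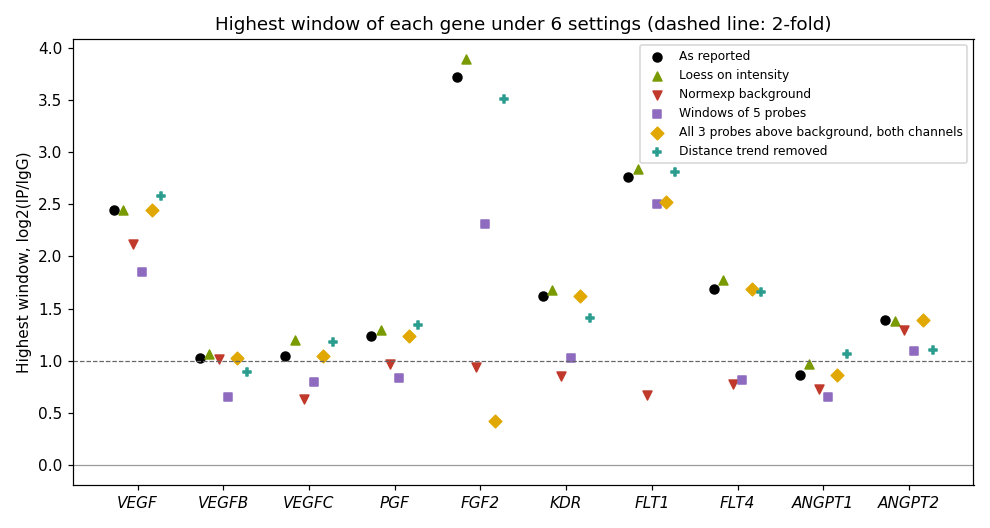
Highest window of each gene on the log2(IP/IgG) scale as reported and under 5 other ways of processing the same arrays; the dashed line is 2-fold. VEGF lay between 1.85 and 2.58 throughout, whereas FGF2 ranged from 0.42 to 3.89 and FLT1 from 0.67 to 2.83.

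When all windows were divided into 4 equal groups by intensity within each array, the 10 genes had 46, 82, 93 and 81 windows in them, from dim to bright. In the dimmest group 11 of their 46 windows (23.9%) were on the IP side, and 11.3% of all windows in it were. In the brightest group 3 of 81 (3.7%) were, and 6.19% of all windows in it. The VEGF peak inside the gene was in the brightest group, just past its edge at the intensity percentile 75.1. Of the chIP1 windows in that group 0.021% were as high. The FGF2 peak was in the dimmest group, of whose chIP1 windows 0.013% were as high. Each peak was the highest of its gene's windows, whereas these shares are of all single windows. The highest window of FLT1 was matched by 0.28% of the dimmest windows of chIP2.

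By position, the probes of the 10 genes from 500 bp upstream up to the start had a mean log2(IP/IgG) of 0.67 (24 probes), against 0.26 over all probes of that zone. This mean was raised by ANGPT2 at 1.36, KDR at 1.53 and FGF2 at 1.61. VEGF was at 0.14, VEGFB at 0.07 and ANGPT1 at 0.00, and FLT4 was the lowest at -0.21. From the start to 500 bp inside, the mean was 0.16 (28 probes), against 0.25. Beyond 2000 bp inside, where VEGF had 1.04 over 10 probes, the mean was 0.35 (45 probes), against -0.12. FLT1 was the lowest there at -0.97. The probes of the 10 genes in this zone ended at 3861 bp, whereas the zone of all probes had no outer limit, so the stretches differ.

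A list of further genes of the same pathways held 34 genes with windows. Of these, 26 (76.5%) had an IP-side window and 20 (58.8%) an IgG-side window, against the 57.1% and 52.9% of all genes. Their median highest window was 1.29 on the log2 scale and their median lowest window -1.11. They had from 8 to 56 windows each, and the shares of all genes were not matched for this number either. By system, an IP-side window was present in 2 of the 3 other VEGF family and co-receptor genes, 2 of 3 angiopoietin system genes, 3 of 5 FGF system genes, 5 of 5 PDGF system genes, 10 of 13 regulators and 4 of 5 endothelial genes. The highest windows of the list were at HIF1A, the oxygen-regulated activator of VEGF transcription, at VHL, which marks HIF1A for degradation, and at FGF1, with 2.24, 2.22 and 2.15. The HIF1A window was dim, with mean raw signals of 376.4 in the IP and 306.9 in the IgG channel. The lowest windows were at EFNB2, an arterial ephrin, at FGF1 and at PDGFC, with -3.03, -2.50 and -2.28. TEK, the receptor of both angiopoietins, had a highest window of 1.70 centered 45 bp inside its start, with mean raw signals of 1100.6 in the IP and 421.8 in the IgG channel.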

How the data were processed

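Untreated Meg-01 cells were profiled by GATA1 ChIP-on-chip on 2 Agilent promoter arrays. The authors deposited scanner output made with Agilent Feature Extraction 9.5.3.1. Per the file headers, the deposited processed intensity values were background-subtracted and dye-normalized, the mean intensities uncorrected, and the log10 ratio of each spot, its log10 error and its p-value came from the scanner's error model. The deposited series table held the same log10 ratios.

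Control spots, spots marked as non-uniform and probes that neither channel showed well above background were dropped here. Log2 ratios of the processed intensities were centered on each array's median and averaged in windows with Python 3.11.15 and pandas 2.3.3. Loess (span 0.3) and normexp (offset 50) were run with limma 3.58.1 in R 4.3.3. The code for window calling was checked on simulated probes with far less noise than these arrays, which says nothing about false calls here. The text covers all 10 genes, genes sharing their probes, the pathway genes with the 3 highest and the 3 lowest windows, and TEK. Genes, lists and rules were chosen with earlier results of these data known. Promoter sequences came from RefSeq (GRCh38.p14), with entries for 6 of the 10 genes, and the primers from the study. The number of arrays limits precision.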

Additional observations from a re-analysis of the deposited data

How the results depend on the processing

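No paired analysis was possible because no probe was on both arrays. The number of genes with an IP-side window was 9 as reported (57.1% of all genes) and moved to 3 with normexp background correction (33.1%), 5 in windows of 5 probes (34.1%) and 5 at 3-fold (20.6%). The number with an IgG-side window was 5 as reported (52.9% of all genes), 2 with normexp (23.9%), 9 with single probes (81.0%), 3 in windows of 5 probes (33.5%), 8 at 1.5-fold (78.4%), 2 at 3-fold (22.3%) and 9 when the deposited p-values were used in place of a fold (79.8%). The shares over all genes thus moved in the same direction as each of these counts. The median highest window of the 10 genes was 1.51 on the log2 scale as reported, 0.90 with normexp, 2.41 with single probes and 0.93 in windows of 5 probes. Of the 34 pathway genes, 26 had an IP-side window as reported, 15 in windows of 5 probes and 13 at 3-fold, beside the same shares of all genes. Of 90 values of a gene's highest window under an alternative, 76 stayed on the same side of 2-fold. Normexp accounted for 6 of the 14 that did not and windows of 5 probes for 4. Loess, the series table, no filter on dim probes and the filter on both channels moved none across. The windows restricted to probes well above background in both channels were added after seeing the data. Only VEGF and ANGPT2 stayed past 2-fold under all of these. The causes of these shifts were not tested. Signals near the negative controls limit what can be said of FGF2 and FLT1, and 1 hybridization per probe limits every value.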
